A study of Mus musculus with 8 samples.

Results

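Genes grouped as activity-regulated in neurons, mostly more slowly or for longer than *Fos*, were followed in RNA-seq libraries of mouse primary motor cortex (M1). They mostly encode secreted and signaling proteins and were *Bdnf*, *Nptx1*, *Nptx2*, *Vgf*, *Scg2*, *Inhba*, *Ptgs2*, *Homer1*, *Nr4a2* and *Nr4a3*. These 10 genes are part of the 38031 genes of the count table and were listed by name. Each gene is represented by its annotated transcript with the lowest Ensembl number. The study compared M1 treated with a *Fezf2* shRNA (4 libraries) with M1 treated with a non-silencing shRNA as the control (4 libraries), to ask what the transcription factor *Fezf2* maintains in the mature cortex. All mice were male, of the Swiss Webster strain, and received lentivirus at postnatal day 21 to 25. Tissue was taken 4 weeks later, at postnatal day 49 to 53, so injection, virus and mCherry were common to both treatments. A rat Synapsin I promoter drove mCherry together with the shRNA, which limits expression of the construct to neurons. The dissected piece was chosen by mCherry and holds every cell type of M1, transduced or not, so fewer cells of a type and less RNA per cell cannot be told apart. The labels number 4 samples of each treatment and name no animal for a library, so the p-values measure the spread between these 8 samples.

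Synaptic activity and calcium entry lead, through kinases and the factor CREB, first to immediate early genes such as *Fos* and *Arc* and then to a slower group of effectors. That slower group contains secreted factors, enzymes and scaffolds that act on the synapse and on neighboring cells. BDNF is a neurotrophin that acts through the receptor TrkB. NPTX1 and NPTX2 are secreted pentraxins that cluster AMPA receptors, and VGF and secretogranin II (*Scg2*) are precursors of peptides stored in dense-core vesicles. *Inhba* encodes the subunit of activin A, and *Ptgs2* encodes cyclooxygenase 2, the inducible enzyme of prostaglandin synthesis. *Homer1* encodes a scaffold of group I metabotropic glutamate receptors, whose short, activity-induced form Homer1a arises from an earlier transcript end. *Nr4a2* and *Nr4a3* encode orphan nuclear receptors that are induced like immediate early genes.

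CREB binds the cyclic AMP response element, and the stretches below are shown because they hold its core in members whose counts are described below. The motif TGACGT, searched on both strands, was present in 7.51% of 32851 RefSeq promoter windows of 300 bases (250 before to 50 after a transcription start, GRCm38.p6). Of the 10 genes, 7 had 14 windows among these, and 5 of the 7 (*Scg2*, *Ptgs2*, *Bdnf*, *Nr4a3* and *Homer1*) had a window with the core. Because the genes had from 1 to 7 windows, this share is not set against that of all windows. The full element TGACGTCA, which contains the core, was present in 1.79% of all windows and in the window of *Scg2*. Capitals mark the matches and every run reads 5′ to 3′ on the strand of the gene.
Scg2: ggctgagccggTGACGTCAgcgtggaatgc
Bdnf: tatgacagctcACGTCAaggcagcgtgg
Nr4a3: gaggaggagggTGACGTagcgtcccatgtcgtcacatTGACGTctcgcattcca
Homer1: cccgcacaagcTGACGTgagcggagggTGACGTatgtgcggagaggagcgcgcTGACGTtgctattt
The run of *Scg2* lies at chr1:79440076-79440105 on the minus strand, within the first exon of its GENCODE transcript, and its match ends 61 bases before the RefSeq start. The run of *Bdnf* lies at chr2:109692389-109692416 on the plus strand and ends its match 31 bases before an annotated *Bdnf* start. The run of *Nr4a3* lies at chr4:48045063-48045116 on the plus strand, and a further match of that window lies in an exon. The run of *Homer1* lies at chr13:93303690-93303756 on the plus strand and holds 3 matches within 67 bases, directly before an annotated *Homer1* start. In *Ptgs2* the match lies 13 bases after the start. The letters AAAGGTCA (a site for NR4A monomers), TGACTCA (AP-1) and GCGTGGGCG (EGR), searched on both strands, were in 0 of the 14 windows and in 1.51%, 5.2% and 0.612% of all windows. A match describes letters only, and binding was not measured.

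Counts on genes ranged from 54684016 to 58003814 per library. Normalized counts below are the raw counts rescaled to the mean effective depth (library total times TMM factor) of the 8 libraries. *Fezf2* itself ranged from 688 to 767 normalized counts in the controls and from 568 to 621 with the *Fezf2* shRNA. The treatments did not overlap (exact permutation test, two-sided, p = 0.0286, the smallest p that 4 against 4 allows), and the mean with the *Fezf2* shRNA was 81.8% of the control mean (log2 fold change -0.29, SE 0.0781), but the change missed the threshold (edgeR quasi-likelihood test, adjusted p = 0.0824). It was past the threshold with DESeq2 and was smaller with an offset for gene length (-0.18, edgeR adjusted p = 0.447). Summed counts of 9 neuronal markers were 224314 to 248943 in the controls and 238614 to 246199 with the *Fezf2* shRNA. The summed levels of the lists for striatal projection neurons, oligodendrocytes and their precursors, astrocytes, microglia, endothelial cells and meninges also overlapped between treatments. Of these, oligodendrocyte markers had a wide range, with 56563 to 104366 in the controls and 42399 to 70284 with the *Fezf2* shRNA. Markers of meninges and fibroblasts had a wider relative range at low counts, with 434 to 1630 in the controls and 387 to 1963 with the *Fezf2* shRNA. None of the markers was at 0 in every library, and the part of other cell types in the results was not tested.

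None of the 10 genes passed the threshold (adjusted p of at most 0.05 and a log2 fold change of at least 0.2 in either direction, edgeR). Of the 10, 8 passed the filter (over 8 CPM, counts scaled to library size, in 4 or more libraries) and were tested, and 0 of these 8 were called. Over all 9959 genes tested, 208 were called, which is 2.09%. Of the 8 genes, 0 had an unadjusted p below 0.05, compared with 19.6% of all genes tested, and DESeq2, which called 7.55% of all genes without a prior and 7.37% with one, called 0 of the 8. The log2 fold change (*Fezf2* shRNA minus control) was positive for 5 of the 8 and negative for 3, with a median of 0.12, compared with -0.03 over all genes tested. The normalized counts of the treatments overlapped for all 10 genes, compared with no overlap for 11.8% of all genes tested. *Inhba* and *Nr4a2* had more than 8 CPM in only 1 library each. Both are given from a fit in which the filter was lowered to 1 CPM and which held 16481 genes, 0.51% of them called.

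**Figure D1:**
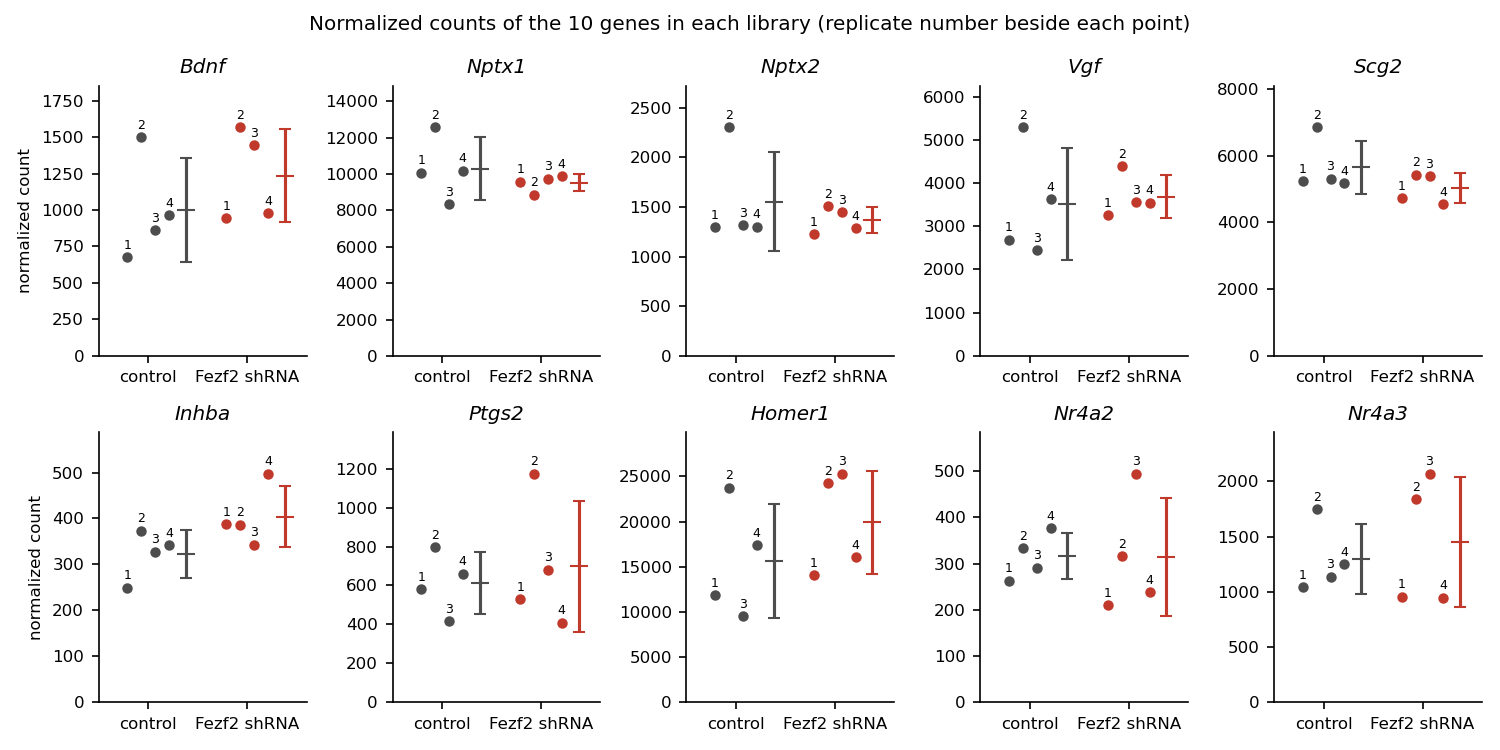
Normalized counts (vertical axis, from 0) of each of the 10 genes in the 4 control and the 4 Fezf2 shRNA libraries, with the replicate number at each point and the mean ± SD (n = 4) as a bar beside them. The points of the treatments overlap in all 10 panels, and control replicate 2 is among the 4 highest points in each.

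Among the secreted ligands, *Bdnf* varied more between samples of the same treatment than between treatments. Its normalized counts were 675, 1499, 862 and 967 in control replicates 1 to 4 and 945, 1568, 1445 and 981 in *Fezf2* shRNA replicates 1 to 4. Control replicate 2 and *Fezf2* shRNA replicates 2 and 3 were high and the 5 others were low, so both treatments held high and low samples. The means were 1000.5 ± 354 and 1235 ± 318 (SD, n = 4), with a log2 fold change of 0.30 (SE 0.237, 95% interval -0.22 to 0.83, edgeR adjusted p = 0.488). The interval allows anything from 0.859-fold to 1.78-fold of the control level. The counted *Bdnf* interval, chr2:109674700-109727007 (GRCm38), spans 52.3 kb with introns, and 3.62% of it is shared with the antisense gene *Gm45346*, whose reads cannot be told apart here.

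*Inhba*, which forms activin A, had the lowest level of the 10 per kb of interval (18.4 normalized counts per kb). It had normalized counts of 249.8, 374, 328 and 342 in the controls and 388, 387, 343 and 497 with the *Fezf2* shRNA. The lowest sample was a control and the highest a *Fezf2* shRNA sample, and the treatments overlapped because control replicate 2 lay above *Fezf2* shRNA replicate 3. Its log2 fold change was 0.32 (SE 0.149, 95% interval -0.01 to 0.65), with an unadjusted p of 0.0541 and an adjusted p of 0.321 (edgeR). The exact permutation test gave p = 0.0571 (two-sided, n = 4 and 4). The *Inhba* interval, chr13:16011851-16031621, is overlapped on the opposite strand by the pseudogene *B230303A05Rik* over 58.5% of its length and by *Gm48444* over 31.6%. The counting was not stated to use strand, so the *Inhba* count is uncertain.

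The pentraxins *Nptx1* and *Nptx2* form mixed complexes at excitatory synapses, but differed in level and in spread. *Nptx1* had 10073, 12568, 8348 and 10184 normalized counts in the controls and 9569, 8862, 9747 and 9886 with the *Fezf2* shRNA. All 4 *Fezf2* shRNA samples lay within the range of the controls. The means were 10293 ± 1734 and 9516 ± 455 (SD, n = 4), with a log2 fold change of -0.11 (SE 0.106, 95% interval -0.35 to 0.12, edgeR adjusted p = 0.569). The value for *Nptx1* was -0.0033 without control replicate 2, -0.19 without control replicate 3 and -0.0149 with an offset for gene length. *Nptx2* had 1294, 2303, 1316 and 1302 normalized counts in the controls and 1225, 1504, 1446 and 1288 with the *Fezf2* shRNA. Control replicate 2 stood well above the 7 other samples, which lay between 1225 and 1504. The log2 fold change of *Nptx2* was -0.19 (SE 0.176, 95% interval -0.57 to 0.20, edgeR adjusted p = 0.575) and was 0.07 without that library. Per kb of interval, the mean was 1096 normalized counts for *Nptx1* and 126 for *Nptx2*. The log2 ratio of *Nptx2* to *Nptx1* within a library ranged from -2.97 to -2.45 and differed by -0.04 between treatments (*Fezf2* shRNA minus control, exact permutation test, two-sided, p = 0.8). The annotated intervals are chr11:119538719-119547753 for *Nptx1* and chr5:144545902-144557478 for *Nptx2*.

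The granin-family precursors *Vgf* and *Scg2* were among the 3 members with the highest counts per kb of interval, with means of 1178 and 978 normalized counts per kb. *Vgf*, at chr5:137030295-137033351, had 2692, 5291, 2452 and 3622 normalized counts in the controls and 3258, 4388, 3561 and 3544 with the *Fezf2* shRNA. Controls held both the highest sample and the 2 lowest, and the *Fezf2* shRNA samples lay between these. For *Vgf* the log2 fold change was 0.07 (SE 0.208, 95% interval -0.39 to 0.53, edgeR adjusted p = 0.874). *Scg2*, at chr1:79434669-79440120, had 5245, 6853, 5307 and 5175 normalized counts in the controls and 4731, 5435, 5380.3 and 4545 with the *Fezf2* shRNA. Control replicate 2 was again the highest of the 8, and the 2 lowest samples had received the *Fezf2* shRNA. For *Scg2* the log2 fold change was -0.17 (SE 0.0993, 95% interval -0.39 to 0.05, edgeR adjusted p = 0.356). Its unadjusted p of 0.118 was the smallest among the 8 genes tested. The log2 ratio of *Scg2* to *Vgf* ranged from 0.31 to 1.11 and differed by -0.29 between treatments (*Fezf2* shRNA minus control, exact permutation test, two-sided, p = 0.257), with -0.17 without control replicate 3 and -0.41 without control replicate 2.

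*Ptgs2*, whose enzyme starts prostaglandin synthesis, had the largest spread within treatments of the 10 genes (SD of log2 normalized counts 0.54). Its normalized counts were 582, 797, 417 and 661 in the controls and 529, 1174, 681 and 409 with the *Fezf2* shRNA. The highest and the lowest sample had both received the *Fezf2* shRNA and differed 2.87-fold. *Ptgs2* had more than 8 CPM in 6 of the 8 libraries. Its log2 fold change was 0.18 (SE 0.295, 95% interval -0.47 to 0.84, edgeR adjusted p = 0.754), and became -0.19 without *Fezf2* shRNA replicate 2. The counted interval was chr1:150100031-150108227.

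*Homer1*, the synaptic scaffold, had 11899.5, 23776, 9555 and 17415 normalized counts in the controls and 14072, 24250.3, 25309 and 16104 with the *Fezf2* shRNA. Control replicate 2 and *Fezf2* shRNA replicates 2 and 3 were the 3 highest samples, as for *Bdnf* and *Nr4a3*. The means were 15661 ± 6334 and 19934 ± 5673 (SD, n = 4). The log2 fold change of 0.35 was the largest of the 8 genes tested, with an SE of 0.274 and a 95% interval of -0.26 to 0.95 (edgeR adjusted p = 0.492). With an offset for gene length it was 0.26, below *Bdnf* (0.28) and *Ptgs2* (0.27). Its interval, chr13:93305159-93403790, spans 98.6 kb, and 2 annotated genes of unknown status on the same strand, *Gm47075* and *Gm47088*, lie within it and cover 2.04% and 1.66% of it.

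The 11 annotated transcripts of *Homer1* and the 11 of *Bdnf* share reads but differ in their ends, which allowed the interval to be divided into parts. These parts were chosen after the counts were seen and are described without a test. The 5′ part of *Homer1* is the interval of Homer1-205, chr13:93305184-93367134, a shorter transcript that ends before the 3′ exons of the long forms. The 3′ part runs from there to the end of Homer1-201 (chr13:93367135-93403790), and its value is the count of Homer1-201 less that of Homer1-205, so reads across the boundary stand in the 5′ part. The 5′ part had 7822, 18046, 6059 and 12500.0 normalized counts in the controls and 8447, 18246, 18528 and 11589 with the *Fezf2* shRNA. The 3′ part had 4077, 5730.1, 3496 and 4915 in the controls and 5625, 6005, 6781 and 4515 with the *Fezf2* shRNA. The highest sample was 3.06-fold the lowest on the 5′ part and 1.94-fold on the 3′ part, so the spread of *Homer1* was wider on the 5′ part. Of the 5′ part 10.1% is exonic, and of the 3′ part 6.82%. The 5′ part also holds reads of the long forms and of introns, which cannot be told apart there from those of the short transcripts. The ratio of the 5′ part to the 3′ part was 1.92, 3.15, 1.73 and 2.54 in the controls and 1.502, 3.04, 2.73 and 2.57 with the *Fezf2* shRNA. It overlapped between treatments, and its lowest and highest values were those of *Fezf2* shRNA replicate 1 and control replicate 2. *Gm47075* and *Gm47088* lie within the 5′ part.

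*Bdnf* joins alternative 5′ exons to 1 shared coding exon, and its interval from the start of Bdnf-203 onward was divided in the same way. The counted interval before that start, from chr2:109674700, stands in neither part. The stretch from the start of Bdnf-203 to that of Bdnf-202 (chr2:109694409-109709382, of which 1.42% is exonic) had 23.6, 211, 48.2 and 105 normalized counts in the controls and 95.9, 223, 259 and 127 with the *Fezf2* shRNA. The same 3 samples, control replicate 2 and *Fezf2* shRNA replicates 2 and 3, were high here. The interval of Bdnf-202 (chr2:109709383-109727007), which holds the shared 3′ exon, had 543, 1004, 690.4 and 655 normalized counts in the controls and 676, 1092, 944 and 631 with the *Fezf2* shRNA. The highest sample was 10.96-fold the lowest on the mostly intronic stretch and 2.01-fold on the 3′ part, and the counts of the former are small. Across all transcripts of the 10 genes, 29 had enough counts to be tested and 0 were called, compared with 5.22% of all 32204 transcripts tested. Of the 29, 11 were overlapping intervals of *Bdnf* and 11 of *Homer1*, so they are not 29 separate readings. The log2 fold changes of the 29 ranged from -0.19 to 0.40 and their smallest adjusted p was 0.349 (edgeR).

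**Figure D2:**
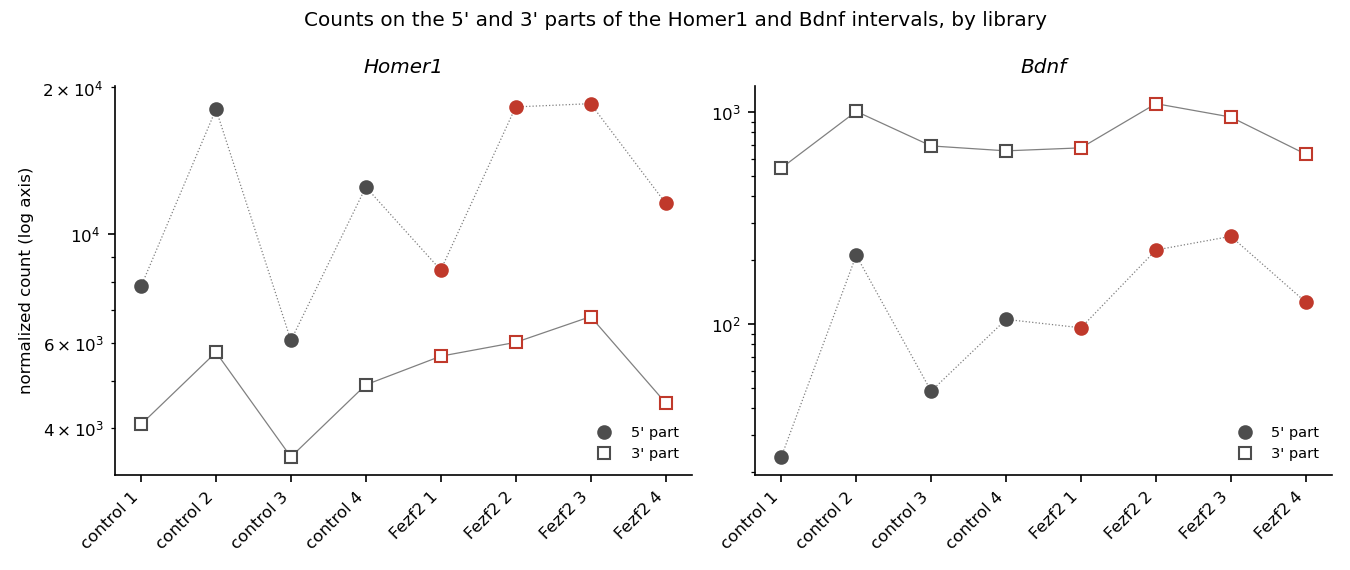
Normalized counts (log axis) on the 5′ part (filled circles) and the 3′ part (open squares) of the Homer1 and Bdnf intervals in each of the 4 control (grey) and 4 Fezf2 shRNA (red) libraries; lines only join points of 1 part. The 5′ part spans 6059 to 18528 for Homer1 and 23.6 to 259 for Bdnf, wider than the 3′ part of the same gene. For Bdnf the 5′ part is the stretch from the start of Bdnf-203 to that of Bdnf-202. The counted Bdnf interval before that stretch is in neither part.

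Of the nuclear receptors, *Nr4a3* had 1043, 1751, 1137 and 1252 normalized counts in the controls and 956, 1841, 2069 and 948 with the *Fezf2* shRNA. The *Fezf2* shRNA samples held the 2 highest and the 2 lowest values, so the control range lay inside theirs. For *Nr4a3* the log2 fold change was 0.17 (95% interval -0.41 to 0.74, edgeR adjusted p = 0.748), over chr4:48045153-48086445. *Nr4a2*, at chr2:57106830-57115038, had 264, 333, 291 and 376 normalized counts in the controls and 211, 316, 495 and 239 with the *Fezf2* shRNA. *Fezf2* shRNA samples were again both the highest and the lowest, and the means were 316 ± 49.4 and 315 ± 128 (SD, n = 4). The 95% interval of the log2 fold change was -0.53 to 0.53, which does not show that the level was the same. The log2 ratio of *Nr4a3* to *Nr4a2* ranged from 1.73 to 2.54 and differed by 0.17 between treatments (*Fezf2* shRNA minus control, exact permutation test, two-sided, p = 0.343), with 0.0579 without *Fezf2* shRNA replicate 2 and 0.30 without control replicate 2.

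**Figure D3:**
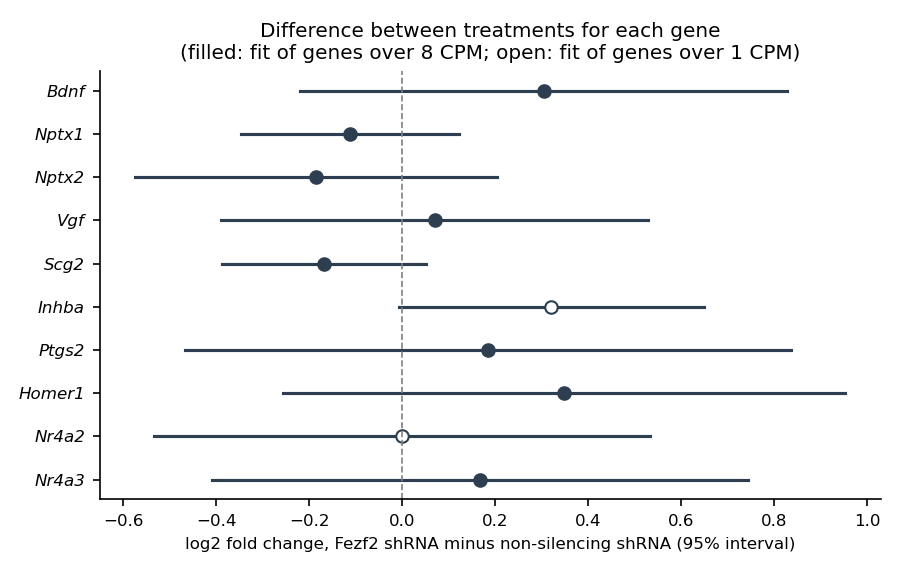
Log2 fold change (horizontal axis, Fezf2 shRNA minus non-silencing shRNA) with its 95% interval for each of the 10 genes, filled for the fit of genes over 8 CPM and open for Inhba and Nr4a2, from the fit of genes over 1 CPM. All 10 intervals include 0, and that of Inhba reaches from -0.01 to 0.65.

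The main feature of the 10 genes was the spread between samples of the same treatment. The SD of log2 normalized counts within treatments had a median of 0.40 over the 10, compared with 0.12 over all genes tested. It lay above the 90th percentile of all genes tested for 8 of the 10 and above the 95th for 7. *Nptx1* (0.18) and *Scg2* (0.17) had the smallest spread and were the 2 genes below that 90th percentile. *Inhba*, *Nr4a2* and *Ptgs2*, the members with the lowest counts, had SDs of 0.24, 0.42 and 0.54, and *Homer1*, the member with the highest, had one of 0.51. The part of the count level in the spread was not tested.

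The order of the libraries was similar across genes of different function. Control replicate 2 was among the 4 highest libraries for 10 of the 10 genes, and was the highest for *Nptx1*, *Nptx2*, *Vgf* and *Scg2*. *Fezf2* shRNA replicate 2 was among the 4 highest for 9 and *Fezf2* shRNA replicate 3 for 8. Control replicates 1 and 3 and *Fezf2* shRNA replicates 1 and 4 were among the 4 lowest for 9, 8, 9 and 7 of the genes. *Nptx1* was an exception for *Fezf2* shRNA replicate 2, with 8862 as the lowest of its treatment. *Inhba* was an exception for *Fezf2* shRNA replicate 4, with 497 as the highest of all libraries.

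The faster immediate early genes showed the same libraries at the top. Among 12 immediate early genes tested, *Fezf2* shRNA replicates 2 and 3 were both among the 3 highest libraries for 12, and control replicate 2 for 11. *Arc*, a regulator of AMPA receptor trafficking, had 8299, 27214.5, 5877 and 14944 normalized counts in the controls and 8989.6, 21396, 22586 and 8832 with the *Fezf2* shRNA. *Junb*, a subunit of AP-1, had 1325, 3883, 1446 and 2555 in the controls and 1946, 5121, 4290.5 and 1503 with the *Fezf2* shRNA. The median log2 deviation of the 12 from their own means was 0.69 in control replicate 2, 0.72 in *Fezf2* shRNA replicate 2 and 0.66 in *Fezf2* shRNA replicate 3. In the same libraries the median deviation of the 10 slower genes was smaller, with 0.39, 0.22 and 0.08. In control replicates 1 and 3 it was -0.27 and -0.22 for the slower genes and -0.54 and -0.63 for the immediate early genes. The median deviation over all genes tested was between -0.01 and 0.01 in every library. The same 3 libraries had 55431945, 56495396 and 56160031 counts on genes, inside the range of the others. What set the levels of these libraries was not tested, and both gene lists come from the same 8 libraries.

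**Figure D4:**
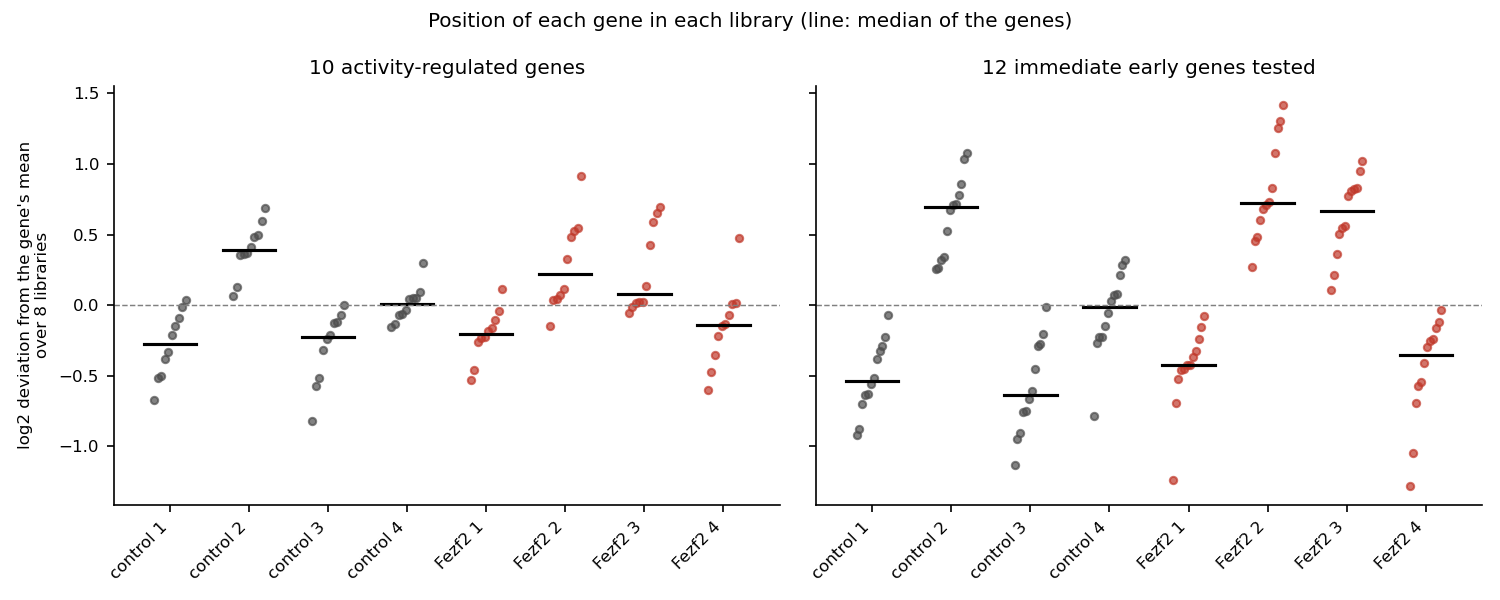
Log2 deviation of each gene from its mean over the 8 libraries (vertical axis) in each library, for the 10 slower genes and for 12 immediate early genes, with control libraries in grey, Fezf2 shRNA libraries in red and the median as a line. Control 2, Fezf2 2 and Fezf2 3 have the highest medians in both panels, from 0.08 to 0.39 on the left and from 0.66 to 0.72 on the right.

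Receptors, partners and processing enzymes of these genes were examined as lists chosen by known function. Of 72 such genes (the immediate early genes included), 50 were tested, and by edgeR 1 increased and 0 decreased. DESeq2 called 6 of the 50, all increased, with or without its prior (*Acvr1*, *Gria4*, *Grm5*, *Ntrk3*, *Pcsk2* and *Shank2*, of which the last 5 are named after their values were seen), against 7.37% and 7.55% of all genes. An offset for gene length left 0 called. Over all genes tested, 1.96% increased and 0.131% decreased. The gene that increased was *Acvr1*, a type I receptor of the activin and bone morphogenetic protein family at chr2:58447149-58567157, with a log2 fold change of 0.54 (SE 0.102, edgeR adjusted p = 0.0309). *Acvr1* had 991 to 1399.7 normalized counts in the controls and 1555 to 1769 with the *Fezf2* shRNA, with no overlap. Its call was lost with an offset for gene length (log2 fold change 0.42, edgeR adjusted p = 0.194) and without control replicate 1, 3 or 4 or *Fezf2* shRNA replicate 1, 3 or 4 (edgeR adjusted p of 0.0581 to 0.103). The other 6 tested genes of the activin list had log2 fold changes of 0.01 to 0.26, with *Acvr1b*, a receptor of activin, at 0.01 and the shared effector *Smad4* at 0.02. With library totals as the scaling 5 of the 7 were positive (*Acvr1b* and *Smad4* were negative), and with the length offset 4 were (*Smad4* was negative). *Inhbb* and the activin inhibitors *Fst* and *Fstl3* were under the filter.

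None of the tested genes in the remaining lists passed the threshold by edgeR. Of the neurotrophin list, 4 of 9 genes were tested, all with positive log2 fold changes (3 of the 4 with library totals as the scaling, and 1 with an offset for gene length). *Ntrk2*, which encodes the BDNF receptor TrkB, had 28635 to 33582.5 normalized counts in the controls and 30742 to 36353 with the *Fezf2* shRNA (log2 fold change 0.15, edgeR adjusted p = 0.3001). *Ntrk3* had the highest value of this list (0.33, unadjusted p = 0.00451, adjusted p = 0.0933, edgeR) and was the 1 gene of it with an unadjusted p below 0.05. The treatments did not overlap for *Ntrk3*, and its value was 0.07 with the length offset. Of the pentraxin list, all 5 genes were tested, with a median of 0.18, and 5 were positive (3 with the length offset). *Nptxr*, the membrane-bound partner of the secreted pentraxins, had a log2 fold change of 0.16 and the AMPA receptor subunit gene *Gria2* one of 0.04. Of the 5, 2 had an unadjusted p below 0.05, the subunit genes *Gria3* (0.23) and *Gria4* (0.32, edgeR adjusted p = 0.0661, 0.06 with the length offset), and the treatments did not overlap for *Gria4*. The 9 genes of dense-core vesicles had a median of -0.03 and ranged from -0.17 to 0.22, and 3 were positive. *Pcsk2*, a prohormone convertase, had the highest value (0.22, unadjusted p = 0.00518, adjusted p = 0.0987, edgeR; -0.0020 with the length offset) and was the 1 gene of this list with an unadjusted p below 0.05. Its treatments did not overlap. The genes with the most counts per kb were *Chgb*, another granin, at -0.17 and *Pcsk1n*, an inhibitor of a prohormone convertase, at -0.06. Of the prostaglandin list, 4 of 11 genes were tested, with a range of -0.13 to 0.07. *Ptgds*, which makes prostaglandin D2, had a log2 fold change of -0.13 with an SE of 0.470, the widest of the list.

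All 7 tested genes of the Homer list had positive log2 fold changes (0.09 to 0.35), and 6 of them had an unadjusted p below 0.05, compared with 19.6% of all genes tested. None passed after adjustment over all genes by edgeR. DESeq2 without a prior, which called 7.55% of all genes, called *Grm5* (log2 fold change 0.35, adjusted p = 0.0045) and *Shank2* (0.32, adjusted p = 0.00485). For both the treatments did not overlap, unlike for *Shank1* and *Itpr1*. Their edgeR log2 fold changes with the length offset were 0.04 for *Grm5* and 0.18 for *Shank2*. *Shank1*, a scaffold bound by Homer proteins, had 5562 to 7342 normalized counts in the controls and 6355 to 8591 with the *Fezf2* shRNA (log2 fold change 0.26, edgeR adjusted p = 0.215), and *Itpr1*, a calcium channel of the endoplasmic reticulum, had a log2 fold change of 0.09. With an offset for gene length, 5 of the 7 were positive and *Itpr1* was at -0.15. Of the NR4A list, *Nr4a1*, also an immediate early gene, had 1490 to 4937 normalized counts in the controls and 1931 to 5106 with the *Fezf2* shRNA (log2 fold change 0.26, edgeR adjusted p = 0.750, with 0.0248 without *Fezf2* shRNA replicate 2 and 0.64 without control replicate 2). *Rxrb*, a partner of some NR4A receptors, was at -0.11. All 12 tested immediate early genes had positive log2 fold changes, compared with 4319 of all 9959 genes tested. The 12 were also positive with library totals and with the length offset. Their median was 0.30, and 0 of them had an unadjusted p below 0.05. *Fezf2* shRNA replicates 2 and 3 were among the 3 highest libraries for all 12, so the 12 signs are not separate observations. Without *Fezf2* shRNA replicate 2, *Arc* was at -0.06, *Nr4a1* at 0.0248 and *Junb* at 0.17. Without *Fezf2* shRNA replicate 3 they were at -0.10, 0.06 and 0.32.

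**Figure D5:**
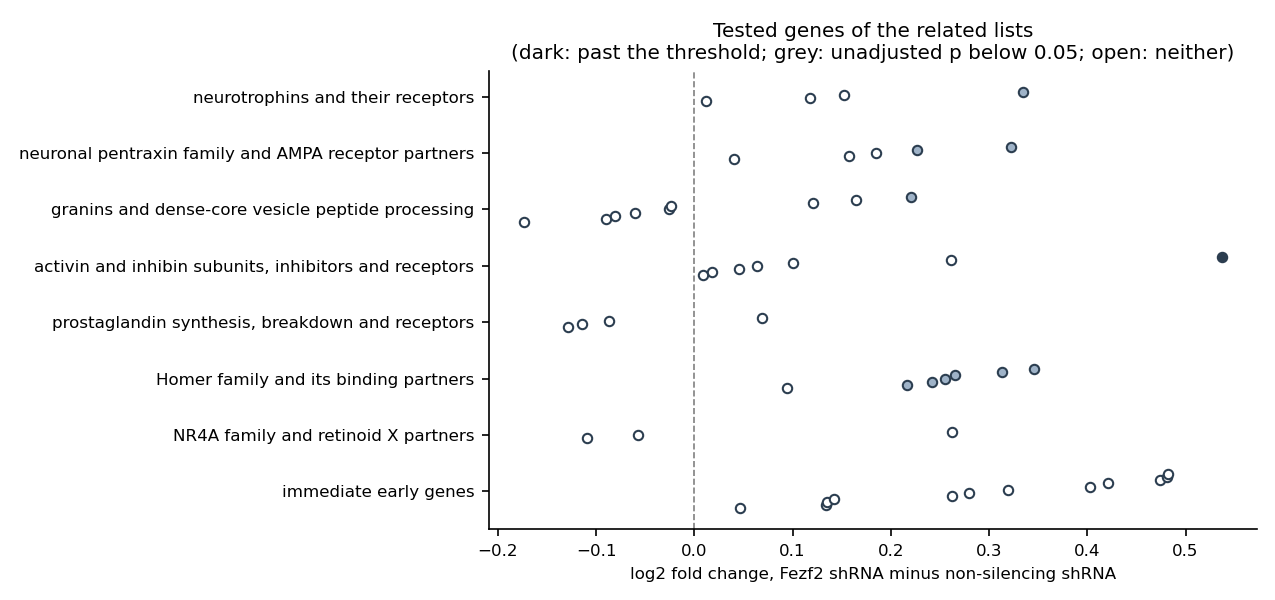
Log2 fold change (horizontal axis, Fezf2 shRNA minus non-silencing shRNA) of each tested gene in the 8 related lists, dark where past the threshold, grey where only the unadjusted p was below 0.05 and open otherwise; Nr4a1 stands in 2 lists. The single dark point is Acvr1 at 0.54, and the 7 Homer partners lie between 0.09 and 0.35.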

How the data were processed

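Total RNA of M1 was sequenced as paired-end reads, and the labels place 4 samples in each treatment. The authors trimmed the reads, mapped them to mm10 with TopHat2 (2.1.1) and counted them over Ensembl annotations with BEDTools (2.26.0) multiCov. The deposited values are raw counts per transcript, whole numbers with no normalization, over intervals from transcript start to end, introns included. Nested transcripts therefore share reads, and strand was not stated to be used. A second deposited table holds the authors' own comparison (base means, fold changes and p-values) and was not used. Of 94647 transcripts, 91320 were matched to GENCODE M21 (GRCm38), and 1.82% of counts fell on the others.

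For every gene, the transcript of lowest Ensembl number was used. Counts were fitted with edgeR 4.0.16 (R 4.3.3; TMM, quasi-likelihood test, no covariate, Benjamini-Hochberg over all genes tested), with the filter and thresholds given above, after the scripts were tested on simulated data. Standard errors were derived as the absolute log2 fold change over the square root of the F statistic of the test. The 95% intervals were derived from these and the t distribution. Ratios and single levels were compared by two-sided exact permutation tests over 70 splits, with 1 added to each count before the log. SDs and deviations of log2 normalized counts were taken with 1 added in the same way. Alternatives were DESeq2 1.42.0, library totals, the median of ratios, an offset for gene length (loess span 0.3), a replicate block, the widest transcript, 10 added to counts, a filter of 1 CPM or none, and leaving out each library. The genes named from the related lists are those past the threshold and the 2 with the highest counts per kb in each list. Other related genes were named after their values were seen. The members and lists were chosen with earlier results of these data known. Promoter sequences are from RefSeq (GRCm38.p6). Some related genes are not reported here and remain only in the counts over lists.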

Additional observations from a re-analysis of the deposited data

Results flagged for a closer look

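In 2 of 28 groups of 4 samples (the 10 genes, *Fezf2* and the 3 ratios, by treatment) 1 sample stood far from the other 3, and chance alone marks about 1 group in 20. *Nptx2* had 2303 normalized counts in control replicate 2, against 1294 to 1316 in the other controls, so that the gap was 0.979 of the range of the group. *Scg2* had 6853 normalized counts in the same library, against 5175 to 5307 in the other controls, a gap of 0.921 of the range. Without this library the log2 fold change was 0.07 for *Nptx2*, in place of -0.19, and -0.06 for *Scg2*, in place of -0.17.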

How the results depend on the processing

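None of the 10 genes passed the threshold under any of the 178 alternatives run over them, where the smallest adjusted p was 0.126. Of these, 162 kept the direction and 16 changed it, 10 of the 16 when 1 library was left out, in 5 genes. Leave-one-out log2 fold changes ranged from 0.16 to 0.56 for *Bdnf*, 0.18 to 0.62 for *Homer1*, 0.21 to 0.40 for *Inhba*, -0.19 to -0.0033 for *Nptx1*, -0.21 to -0.0622 for *Scg2*, -0.26 to 0.0664 for *Nptx2*, -0.31 to 0.15 for *Nr4a2*, -0.0492 to 0.35 for *Nr4a3*, -0.19 to 0.37 for *Ptgs2* and -0.0599 to 0.34 for *Vgf*. For *Nr4a2*, at -0.000185 in the reported fit, the value was 0.00545 with the median of ratios, 0.00538 and 0.00311 with DESeq2 without and with its prior, 0.0817 with the length offset, 0.00829 with the block and length offset, and 0.00659 with no filter. The difference in the log2 ratio of *Nptx2* to *Nptx1* ranged from -0.13 to 0.0600 with 1 library left out, and was positive without control replicate 2 or Fezf2 shRNA replicate 1 or 4. That of *Nr4a3* to *Nr4a2* ranged from 0.0579 to 0.30 and that of *Scg2* to *Vgf* from -0.41 to -0.17. Leave-one-out values ran from -0.0154 to 0.0410 for *Acvr1b*, -0.11 to 0.67 for *Arc*, 0.0248 to 0.64 for *Nr4a1*, -0.15 to 0.0407 for *Pcsk1n*, -0.72 to 0.13 for *Ptgds*, -0.00981 to 0.0571 for *Smad4* and -0.0299 to 0.0716 for *Sort1*.

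Over all genes, 208 were called, and 136 with library totals, 752 and 734 with DESeq2 without and with a prior, 2 with the length offset, 103 with no filter and 84 with the 1 CPM filter. Leaving out 1 library gave 0 to 368 calls, with 0 without control replicate 1, 368 without control 2, 130 without control 3, 4 without control 4, and 13, 5 and 17 without Fezf2 shRNA replicates 1, 3 and 4. Of the related genes, where 1 was called, 6 were called with DESeq2 with or without a prior, 0 with the length offset, with the block and length offset or with the 1 CPM filter, and 0 to 2 with 1 library left out. *Fezf2* was called with DESeq2 without and with a prior (log2 fold changes -0.28 and -0.25), and was at -0.18 with the length offset, not called.

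The treatments share replicate numbers, and the deviations of same-numbered libraries correlated at 0.303, 0.0902, -0.133 and 0.167 for numbers 1 to 4. Of the 8 libraries, 4 correlated best with their own number. Since not every correlation was over 0.1, the numbers were not treated as pairs. With the replicate block 90 genes were called, and 2 with the block and length offset, and 0 of the 8 members tested in these fits were among them. With library totals, *Acvr1b* was at -0.0184, *Smad4* at -0.00900 and *Sort1* at -0.0150. With the length offset, *Gria2* was at -0.0817, *Itpr1* at -0.15, *Ntrk2* at -0.0920, *Pcsk1n* at 0.0519, *Smad4* at -0.0306 and *Sort1* at -0.0524. With the block as well they were at -0.0819, -0.15, -0.0948, 0.0669, -0.0316 and -0.0524, and *Rxrb* was at 0.000353. The causes of these changes were not tested. With 4 samples a treatment and this spread between samples, the intervals of the 10 genes reach from 0.671-fold to 1.94-fold of the control level.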
